A study of Mus musculus with 10 samples.

Results

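Collagens, laminins, fibronectin and the integrins that bind them were read in bulk RNA of mouse cerebral cortex. The set holds every gene of the deposited table whose symbol is a collagen chain, a laminin chain, an alpha or beta integrin subunit of the numbered series, Itgav, Itgam, Itgal or fibronectin (Fn1). Of 14276 genes in the table, 76 met this rule: 43 collagens, 11 laminins, 21 integrin subunits and Fn1. Another 2 genes whose symbols meet it, Col2a1 and Itgb6, are not analysed here. All mice were C57BL/6 and aged 3 months. The 5 control libraries carried no Cre, in 3 cases with Brap flox/wt and in 2 with Brap flox/flox. The 5 libraries labelled BrapcKO, for a conditional knockout of the ubiquitin ligase gene Brap, were Cre-positive, in 3 cases with flox/ko and in 2 with flox/flox. The labels name no Cre driver, so the cells in which recombination took place are not known from the sources used here, and an effect of Cre cannot be told apart from that of the Brap alleles.

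Collagens and laminins are secreted as trimers that build the extracellular matrix. In the brain most of that matrix lies in basement membranes, the sheets of type IV collagen and laminin under endothelial cells, around pericytes and at the pial surface, while fibrillar collagens are mainly made by fibroblasts of the meninges and large vessels. Integrins are paired alpha and beta subunits in the cell membrane. The alpha subunit largely sets the ligand, and the pair links the matrix to the actin cytoskeleton through talin, kindlin and parvin. Some collagens are made by neurons and work near synapses.

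Total counts per library ran from 17188901 to 28991874, and the 76 genes took 0.13% to 0.18% of them. The titles also hold the mark B1 or B2, called the title code here; what it stands for is not stated. The 6 B1 libraries (2 control, 4 BrapcKO) held up to 20955211 counts and the 4 B2 libraries (3 control, 1 BrapcKO) at least 26356508, so the code was a term in every fit below unless stated. The Y-linked gene Ddx3y was above 10 CPM in 5 libraries, 1 control and 4 BrapcKO, so sex was uneven between the groups as well. Brap transcript did not fall in BrapcKO: it stood at 88.4 ± 8.58 CPM (counts scaled to the library total and TMM factor) in controls and at 104 ± 9.15 CPM in BrapcKO (SD, n = 5 each; log2 difference 0.23, SE 0.10, adjusted p = 0.18). Split by genotype in edgeR, Brap was higher in flox/ko Cre+ than in flox/wt Cre- (0.39, SE 0.09, adjusted p = 0.04). Between flox/flox Cre+ and flox/flox Cre- it was at -0.04 (SE 0.12, adjusted p = 0.92). The difference between these contrasts was not called (0.43, SE 0.14, adjusted p = 0.79). The labels do not name the deleted exons, so counts over the whole gene do not check the knockout. BrapcKO below means the libraries labelled so. Nor do the labels say that each library came from its own mouse, so p-values here reflect only how far libraries differ from each other.

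The type IV collagen chains Col4a1 and Col4a2, the type V chains Col5a2 and Col5a3 and the collagen-binding integrin subunit Itga2 were higher in BrapcKO cortex, and 3 collagens of other families and 1 further integrin subunit were lower. With the title code as a term, 9 of the 76 genes (11.8%) changed at an adjusted p under 0.05, against 8.07% of all 14276 genes in the same edgeR fit. The 5 that rose were Col5a3, Itga2, Col4a1, Col4a2 and Col5a2, where 3.12% of all genes rose. Itga2 met the lowest level found in the table only with BrapcKO libraries included, so its place in these counts is not independent of that. The 4 that fell were Col26a1, Col22a1, Col19a1 and Itga4, where 4.95% of all genes fell. The median log2 difference was 0.04 over the 76 genes and 0.01 over all genes. In 8 of the 76 genes the 5 libraries of each group did not overlap, 5 higher and 3 lower, which all genes did in 6.82% of cases (3.12% higher and 3.71% lower). A fit on the groups alone called 4.32% of all genes (1.83% higher, 2.49% lower) and, in this set, Col4a1, Col4a2, Col5a2 and Col5a3 as higher and 0 as lower (9 were lower at an unadjusted p under 0.05). DESeq2 called 15 and limma-voom 11 of the 76, where they called 11.8% and 8.2% of all genes. With 1 library left out at a time, edgeR called 2.84% to 10.2% of all genes, so calls were lost or gained outside the set as well. The 67 other genes did not pass the edgeR test with all libraries. For many of them the interval of the difference was wide, as the plot of differences shows.

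**Figure D1:**
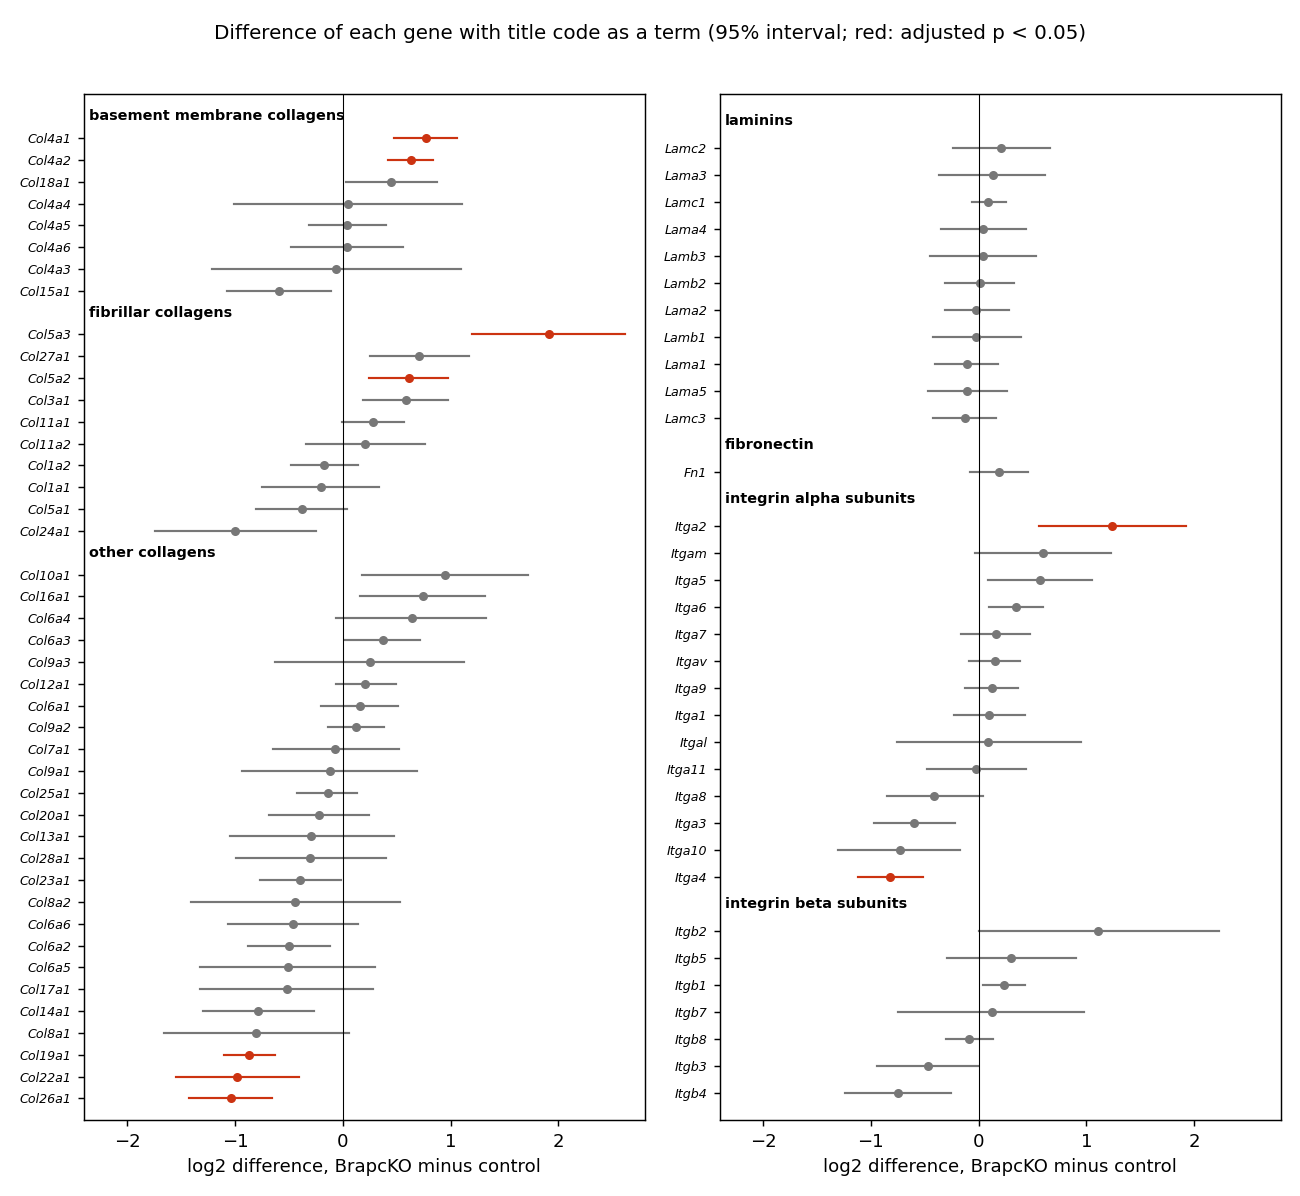
Log2 difference between BrapcKO and control for each of the 76 genes, by family, with the title code as a term. Points are estimates, lines are 95% intervals, and red marks an adjusted p under 0.05; Col5a3 at 1.91 and Itga2 at 1.24 are the highest red points and Col26a1 at -1.04 the lowest, while all 11 laminins lie between -0.13 and 0.21.

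The DNA before the start of the genes that changed is shown for the members on which the results turn. RefSeq promoter windows of GRCm38.p6 were matched for 55 of the 76 genes and for 6 of the 9 that changed. Col4a1 and Col4a2 lie head to head on chromosome 8. Their annotated transcripts start at 11312826 on the minus strand and at 11312805 on the plus strand, so the first exons share 22 bases (chr8:11312805-11312826, plus strand). The Col5a3 window (chr9:20815068-20815317, minus strand) belongs to the gene with the largest rise. The Col19a1 stretch (chr1:24587473-24587687, minus strand) belongs to the gene with the smallest p. Those of Itga2 (chr13:114932101-114932350, minus strand) and Itga4 (chr2:79255176-79255425, plus strand) belong to the integrin subunits that moved in opposite directions. Capitals mark a GC box (GGGCGG or CCGCCC) or a CCAAT box (CCAAT or ATTGG).
Col4a1 and Col4a2 shared start: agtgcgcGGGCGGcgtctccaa
Col5a3: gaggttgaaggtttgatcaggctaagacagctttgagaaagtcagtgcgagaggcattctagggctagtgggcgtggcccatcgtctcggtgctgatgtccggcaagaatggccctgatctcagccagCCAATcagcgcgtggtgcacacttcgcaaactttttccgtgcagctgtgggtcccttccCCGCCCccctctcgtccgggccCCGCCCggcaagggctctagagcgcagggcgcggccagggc
Col19a1: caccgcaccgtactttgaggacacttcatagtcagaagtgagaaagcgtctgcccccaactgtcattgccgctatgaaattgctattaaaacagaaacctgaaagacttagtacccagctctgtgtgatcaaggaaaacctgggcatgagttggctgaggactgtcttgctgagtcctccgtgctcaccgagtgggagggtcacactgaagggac
Itga2: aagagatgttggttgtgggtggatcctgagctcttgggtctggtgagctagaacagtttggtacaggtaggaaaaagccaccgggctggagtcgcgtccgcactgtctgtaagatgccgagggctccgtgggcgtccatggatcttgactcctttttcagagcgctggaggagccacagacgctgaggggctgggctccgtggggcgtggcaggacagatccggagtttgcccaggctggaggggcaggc
Itga4: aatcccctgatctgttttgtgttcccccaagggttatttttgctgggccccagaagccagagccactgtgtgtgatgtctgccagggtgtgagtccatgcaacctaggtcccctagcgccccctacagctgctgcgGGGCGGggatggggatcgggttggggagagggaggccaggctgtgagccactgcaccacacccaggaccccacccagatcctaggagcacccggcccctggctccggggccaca
The 522 bases that span both type IV windows (chr8:11312555-11313076) were 73.9% G or C and held 3 GC boxes, 2 CCAAT boxes and 0 TATA boxes (TATAAA or TTTATA). The Col5a3 window held 2 GC boxes and 1 CCAAT box, the Itga4 window 1 GC box, and the windows of Col19a1 and Itga2 none of the motifs searched. Counted over the 250 bases before the start on both strands, 3 of the 6 windows of changed genes held a GC box, 3 a CCAAT box and 0 a TATA box. Among 32851 such windows in the table the shares were 32.7%, 33.8% and 12.4%. A match is a match of letters only.

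Among genes, levels are compared per kilobase of exon. Itgb1, the beta subunit that pairs with most alpha subunits, had the highest level of the 76 genes, at 21.9 CPM per kb over the 10 libraries. Next came Itgav, the alpha subunit that recognises RGD motifs, at 16 CPM per kb, then its partners Itgb8 at 13.5 and Itgb5 at 11.9 CPM per kb. Over the same 10 libraries Col4a1 and Col4a2 were the highest collagens at 8.31 and 7.73 CPM per kb, followed by Col25a1 at 7.21 CPM per kb. Fn1 stood at 7.17 and the highest laminin, Lamc1, at 6.6 CPM per kb. At the low end, Col4a3 reached 0.0816 CPM per kb. The order of the collagens differed in controls alone, where Col25a1 was the highest at 7.78 CPM per kb. Col6a1 was at 5.71, Col4a1 at 5.64 and Col4a2 at 5.56 CPM per kb there. Of the 76 genes, 63 were at or above 0.582 CPM in all 10 libraries, and 0 of the 76 reached that level in every library of 1 group and in no library of the other. That level is the lowest that any gene in the deposited table reaches in at least 5 libraries, so genes below it in most libraries had been left out before deposit.

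**Figure D2:**
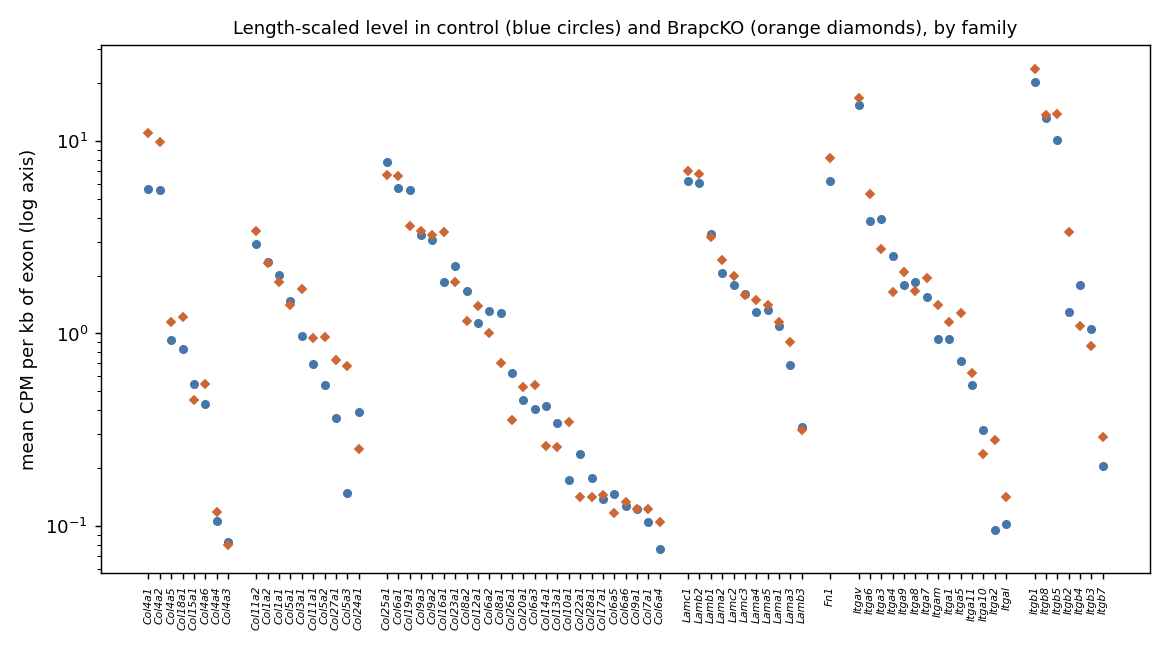
Mean level per kilobase of exon (CPM per kb, log axis) of each of the 76 genes in the 5 control libraries (blue circles) and the 5 BrapcKO libraries (orange diamonds), grouped by family and sorted by level. Itgb1, Itgav, Itgb8 and Itgb5 are the highest points within each group, and Col4a1 and Col4a2 are the highest collagens in BrapcKO.

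Of the 8 basement membrane collagens, Col4a1 and Col4a2 rose and 6 did not pass the test. These genes encode the chains of the common type IV collagen trimer, the network on which basement membranes are built. Col4a1 (chr8:11198423-11312826) stood at 49, 63.6, 30, 40.1 and 27.7 CPM in control 08, 09, 22, 23 and 24, and at 89.8, 78.3, 94.2, 79.1 and 68.3 CPM in BrapcKO 04, 05, 06, 07 and 21. Every BrapcKO library lay above every control library, with the lowest BrapcKO value in the B2 library 21. The means were 42.1 ± 14.8 and 81.9 ± 10.2 CPM (SD, n = 5), a log2 difference of 0.77 with the code as a term (SE 0.13, 1.71-fold, adjusted p = 0.0046). Col4a2 (chr8:11312805-11449287) stood at 39.4, 49.4, 27.6, 35.9 and 31.7 CPM in the controls and at 69.8, 67.9, 72.2, 70.4 and 47.7 CPM in BrapcKO, in the same order. BrapcKO 21 was just below control 09, so the groups overlapped, but within each title code every BrapcKO library was above every control. Its log2 difference was 0.63 (SE 0.10, 1.55-fold, adjusted p = 0.0022).

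Col4a1 and Col4a2 rose side by side: the ratio of their levels per kb ran from 0.776 to 1.14 in controls and from 0.996 to 1.27 in BrapcKO. Within B1 alone the log2 differences were 0.60 and 0.66 (adjusted p = 0.048 and 0.019). Within B2, with 1 BrapcKO library taken to vary like the controls, they were 1.06 and 0.58 (adjusted p = 0.14 and 0.26). Without BrapcKO 21 Col4a1 was 0.59 (adjusted p = 0.074), and with a Y-linked score as a further term it was 0.66 (adjusted p = 0.075). Col4a2 kept its call when any library was left out and with that score (0.54, adjusted p = 0.046). How strand was used in counting is not stated, and reads in the shared 22 bases cannot be told apart. The other type IV chains, which form separate networks in other tissues, were much lower: Col4a5 and Col4a6 were at 0.04 each (95% intervals -0.31 to 0.40 and -0.48 to 0.56), and the intervals of Col4a3 and Col4a4 spanned more than 1 log2 unit on either side of 0. Col18a1, the source of endostatin, was at 0.45 (adjusted p = 0.2) and Col15a1, its relative at the outer face of basement membranes, at -0.59 (adjusted p = 0.13).

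Of the 10 fibrillar collagens, Col5a3 and Col5a2 rose and 8 did not pass the edgeR test. Type V collagen chains are built into collagen fibrils and set their diameter. Col5a3 (chr9:20770050-20815067) was at 1.02, 1.39, 0.935, 1.12 and 0.578 CPM in control 08, 09, 22, 23 and 24 and at 6.79, 3.65, 6.94, 2.79 and 2.8 CPM in BrapcKO 04, 05, 06, 07 and 21. The lowest BrapcKO library was above the highest control, and BrapcKO 04 and 06 stood well above the other BrapcKO libraries. The log2 difference was 1.91 (SE 0.33, 3.75-fold, adjusted p = 0.0044), the largest of the 76 genes. It was 2.06 in B1 alone (adjusted p = 0.05) and 1.65 in B2 alone (adjusted p = 0.18), and the call held when any library was left out. These values rest on 15 to 147 reads per library.

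Col5a2 (chr1:45374321-45503282) had a smaller and less stable rise. Controls stood at 5.95, 5.71, 4.09, 4.47 and 5.63 CPM, and BrapcKO 04, 05, 06, 07 and 21 at 10.6, 11.7, 10.1, 7.67 and 5.84 CPM. BrapcKO 21 lay within the control range and the other 4 above it. The log2 difference was 0.61 (SE 0.17, adjusted p = 0.046), 0.78 in B1 (adjusted p = 0.064) and 0.30 in B2 (adjusted p = 0.65). The call was lost when any library other than control 24 or BrapcKO 07 was left out, with adjusted p-values up to 0.19. Col5a1, the chain with which these assemble, was at -0.38 (95% interval -0.80 to 0.04, adjusted p = 0.28).

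The chains of the abundant type I collagen, Col1a1 and Col1a2, were at -0.20 and -0.17 (adjusted p = 0.7 and 0.55). Col3a1, the type III chain of vessel walls, was at 0.59 (95% interval 0.19 to 0.98, adjusted p = 0.068), and Col27a1, a cartilage fibril collagen, at 0.71 (0.25 to 1.17, adjusted p = 0.06). DESeq2 called both higher (adjusted p = 0.024 and 0.019), and limma-voom called neither (adjusted p = 0.079 and 0.093). Col11a2, a type XI chain and the fibrillar collagen with the highest level per kb, was at 0.21 (adjusted p = 0.68). Col24a1 lay at -1 (95% interval -1.74 to -0.25, adjusted p = 0.1).

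The 25 other collagens leaned the other way, with 17 negative and 8 positive estimates, a median of -0.29, and 3 that fell and 0 that rose in edgeR. At an unadjusted p under 0.05, 6 were lower and 3 higher, and DESeq2 called 4 lower and 1 higher, adding Col14a1 and Col16a1. Col19a1 (chr1:24261890-24587472), a fibril-associated collagen known from interneurons and synapse formation, had the smallest p of the set. It stood at 45.8, 49.6, 31.9, 34.2 and 29.3 CPM in control 08, 09, 22, 23 and 24 and at 30.5, 30.1, 25.6, 22.2 and 16.3 CPM in BrapcKO 04, 05, 06, 07 and 21. The groups overlapped slightly, since B2 controls lay near the B1 BrapcKO libraries, but within each code every BrapcKO library was below every control. The log2 difference was -0.87 (SE 0.11, adjusted p = 0.00064), or 0.548 of the control level. It was -0.82 in B1 (adjusted p = 0.017) and -0.98 in B2 (adjusted p = 0.11), and the call held when any library was left out. On the groups alone it was -0.61 (adjusted p = 0.11).

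Col26a1 and Col22a1 were far less abundant. Col26a1 (chr5:136741759-136883209) was at 6.16, 6.64, 4.16, 4.08 and 4.59 CPM in controls and at 3.68, 3.82, 2.6, 2.49 and 2.02 CPM in BrapcKO, with every BrapcKO library below every control. The log2 difference was -1.04 (SE 0.18, adjusted p = 0.004). Col22a1 (chr15:71795795-72034227), a collagen of tissue junctions, was at 2.54, 2.21, 1.94, 1.99 and 2.27 CPM in controls and at 1.56, 1.85, 0.944, 1.47 and 0.708 CPM in BrapcKO, again with no overlap. Its log2 difference was -0.98 (SE 0.26, adjusted p = 0.039) on 20 to 59 reads per library. The call of Col22a1 was lost when any library other than control 24, BrapcKO 04 or BrapcKO 05 was left out (adjusted p = 0.062 to 0.23), while that of Col26a1 held each time. With the Y-linked score as a further term Col26a1 was at -0.91 (adjusted p = 0.07) and Col22a1 at -0.91 (adjusted p = 0.24).

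Col25a1, the transmembrane collagen of neurons and the highest of this family per kb, was at 101 ± 9.32 CPM in controls and 86.1 ± 17.6 CPM in BrapcKO (log2 difference -0.14, adjusted p = 0.56). The type VI chains, which form beaded filaments around cells, were at 0.16 for Col6a1, -0.50 for Col6a2 and 0.37 for Col6a3 (adjusted p = 0.63, 0.11 and 0.2). Col16a1 had no overlap between groups, at 10.3 to 14.4 CPM in controls and 14.5 to 37.3 CPM in BrapcKO, and a difference of 0.74 that did not pass the edgeR test (SE 0.27, adjusted p = 0.12) but did pass in DESeq2 (adjusted p = 0.026).

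None of the 11 laminins changed in edgeR, DESeq2 or limma-voom, which called 8.07%, 11.8% and 8.2% of all genes. With so few genes, a count of 0 calls does not set laminins apart from all genes. In edgeR 0 laminins passed at an unadjusted p under 0.05, and the laminin estimates spanned -0.13 to 0.21. The share of all genes at that unadjusted p is not given here. The self-assembling laminin network anchors cells to the basement membrane next to type IV collagen. Lamc1, the gamma chain of most laminins, stood at 57.7, 55.5, 45.6, 47.7 and 49.8 CPM in control 08, 09, 22, 23 and 24 and at 62.3, 56.3, 57.4, 61.8 and 52.2 CPM in BrapcKO 04, 05, 06, 07 and 21. The groups overlapped, and the difference was 0.09 (95% interval -0.06 to 0.25, adjusted p = 0.5). The vascular alpha chains Lama4 and Lama5 were at 0.04 (-0.35 to 0.44) and -0.11 (-0.47 to 0.26), and Lama2, the chain on the astrocyte side, was at -0.02 (-0.31 to 0.28). Lamb2, a beta chain of vascular laminins, was at 0.01 (-0.31 to 0.33), and Lamb1 at -0.02 (-0.42 to 0.39). Fn1, the soluble and matrix glycoprotein that binds several integrins, stood at 73, 87.9, 67.4, 71.3 and 61.2 CPM in controls and at 94.5, 105, 96.3, 121 and 59.8 CPM in BrapcKO. The 4 B1 BrapcKO libraries were above every control and BrapcKO 21 was below every control, and the difference was 0.19 (95% interval -0.08 to 0.46, adjusted p = 0.42).

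Of the 14 integrin alpha subunits, Itga2 rose, Itga4 fell and 12 did not pass the test. Itga2 (chr13:114833081-114932100) encodes a collagen-binding subunit that pairs with Itgb1. It was at 0.916, 1.23, 0.312, 0.698 and 0.231 CPM in control 08, 09, 22, 23 and 24 and at 2.33, 2.7, 1.94, 1.76 and 1.31 CPM in BrapcKO 04, 05, 06, 07 and 21. The groups did not overlap, and within each group the B2 libraries were the low ones. Only 3 control libraries reached 0.582 CPM, a level that every gene in the table reaches in at least 5 libraries. Itga2 thus met that level only with the help of the BrapcKO libraries in which it is high, and its p-values are not independent of this. The log2 difference was 1.24 (SE 0.31, adjusted p = 0.031) on 6 to 48 reads per library. Its call was lost when control 08, 09 or 22, or BrapcKO 21, was left out (adjusted p = 0.053 to 0.23), and it was 1.01 in B1 (adjusted p = 0.13) and 1.63 in B2 (adjusted p = 0.3). The other collagen-binding subunits were at 0.10 (Itga1), -0.02 (Itga11) and -0.73 (Itga10), with adjusted p-values of 0.77, 0.97 and 0.11.

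Itga4 (chr2:79255426-79333123) encodes the subunit that binds VCAM-1 and fibronectin. Controls were at 44.6, 34.5, 27.5, 32.9 and 36.2 CPM and BrapcKO libraries at 27.5, 24.7, 21, 27.4 and 14.7 CPM. Control 22 and BrapcKO 04 met at the same value to the digits given, and within each code the BrapcKO libraries were below the controls. The log2 difference was -0.82 (SE 0.14, adjusted p = 0.0042), -0.65 in B1 (adjusted p = 0.048) and -1.14 in B2 (adjusted p = 0.11). The call held when any library was left out. With the Y-linked score as a further term it was -0.77 (adjusted p = 0.054).

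The laminin-binding subunits had differences of both signs, and 0 of the 3 passed the edgeR test. Itga6 was at 0.35 (95% interval 0.10 to 0.60, adjusted p = 0.092), Itga7 at 0.16 (adjusted p = 0.58) and Itga3 at -0.60 (-0.97 to -0.22, adjusted p = 0.052). Itga3 was called lower by DESeq2 (adjusted p = 0.011) and limma-voom (adjusted p = 0.043), and in edgeR without control 24 (-0.51, adjusted p = 0.024) or BrapcKO 05 (-0.64, adjusted p = 0.041). Among RGD-binding subunits, Itgav stood at 165 ± 17.6 CPM in controls and 178 ± 24.6 CPM in BrapcKO (0.15, adjusted p = 0.47). Itga5, the main fibronectin receptor subunit, was at 0.57 (adjusted p = 0.14), and Itga8, which binds nephronectin, at -0.41 (adjusted p = 0.27).

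None of the 7 integrin beta subunits changed in the edgeR fit with the title code, where 8.07% of all genes did. At an unadjusted p under 0.05, 2 were higher and 2 lower, and the share of all genes at that level is not given here. DESeq2 and limma-voom each called Itgb4, where they called 11.8% and 8.2% of all genes. Itgb1 was at 82.1 ± 7.49 CPM in controls and 96.9 ± 7.41 CPM in BrapcKO (log2 difference 0.24, 95% interval 0.04 to 0.43, adjusted p = 0.14). Itgb4, the partner of Itga6 in laminin adhesion, was at 11.1, 11.6, 12.7, 13.8 and 13.2 CPM in control 08, 09, 22, 23 and 24 and at 4.41, 10.3, 9.02, 8.75 and 5.59 CPM in BrapcKO 04, 05, 06, 07 and 21. Every BrapcKO library lay below every control, with BrapcKO 04 and 21 lowest and 05 highest, and the difference was -0.75 (SE 0.23, adjusted p = 0.064). It passed the threshold without BrapcKO 05 (-0.84, adjusted p = 0.03), with the Y-linked score (-1.18, adjusted p = 0.042), in limma-voom (-0.81, adjusted p = 0.032) and in DESeq2 (-0.75, adjusted p = 0.013), and over all alternatives the difference ran from -1.25 to -0.32.

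Itgb2, the beta subunit of leukocytes and microglia, was at 3.7 to 4.24 CPM in controls and at 6.69, 26.3, 6.61, 6.99 and 4.89 CPM in BrapcKO 04, 05, 06, 07 and 21. BrapcKO 05 stood far above the rest, and every BrapcKO library was above every control. The difference was 1.11 with all libraries (SE 0.50, adjusted p = 0.23) and 0.60 without BrapcKO 05 (SE 0.15, adjusted p = 0.027). Its partner Itgam was at 0.60 with all libraries (adjusted p = 0.25) and 0.40 without BrapcKO 05 (adjusted p = 0.29). Itgax, the partner known as CD11c that the name rule leaves out, was at 0.536 ± 0.202 CPM in controls and at 3.94, 19.9, 2.55, 2.25 and 2.83 CPM in BrapcKO 04, 05, 06, 07 and 21. Its difference was 3.26 (SE 0.87, adjusted p = 0.049) and, without BrapcKO 05, 2.53 (SE 0.32, adjusted p = 0.00094). That call was lost without any control library, BrapcKO 04 or BrapcKO 21 (adjusted p = 0.05 to 0.18). Only 2 control libraries reached 0.582 CPM, a level that every gene in the table reaches in at least 5 libraries. Itgax thus met that level only through the BrapcKO libraries in which it is high, and its p-values are not independent of this.

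**Figure D3:**
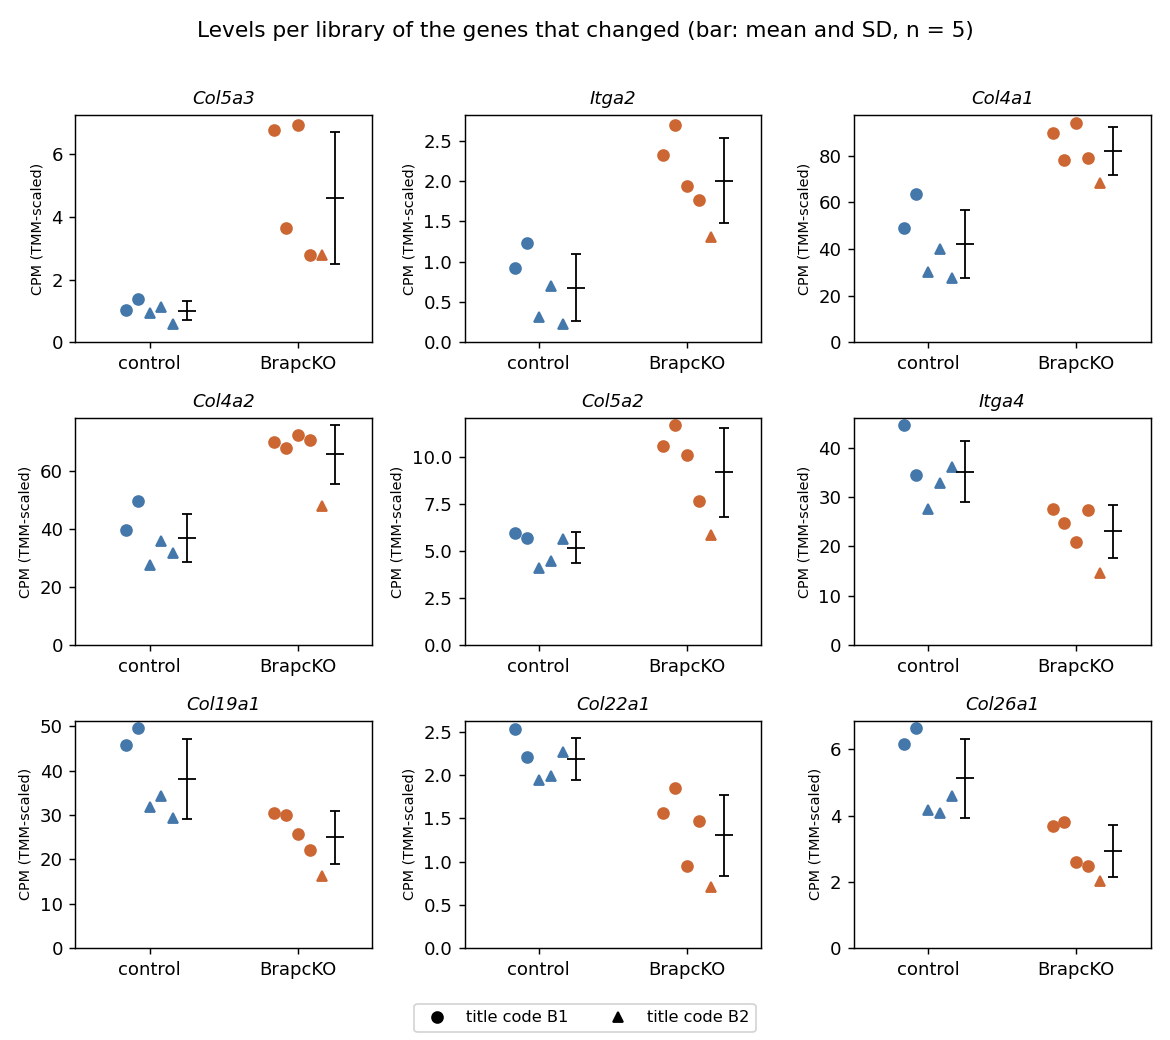
TMM-scaled CPM in each library of the 9 genes that changed, with circles for title code B1 and triangles for B2, and bars for the mean and SD of 5 libraries. In Col5a3, Itga2 and Col4a1 all BrapcKO points lie above all control points, in Col22a1 and Col26a1 all lie below, and in the other 4 the groups meet where B1 and B2 libraries cross.

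The title code moved with many of these genes. In the same fit, 25 of the 76 genes were lower in B2 than in B1 and 0 were higher (37 and 0 at an unadjusted p under 0.05), where 11.8% of all genes were lower, 13.4% higher and 25.1% changed in either direction. The median difference, B2 minus B1, was -0.37 over the 76 genes and -0.02 over all genes. Of the 8 basement membrane collagens 5 were lower in B2, with Col4a1 at -0.59 and Col4a2 at -0.51 (adjusted p = 0.0069 and 0.002). Others were Fn1 at -0.48 (adjusted p = 0.015), Lama2 at -0.53 (adjusted p = 0.014), Col19a1 at -0.64 (adjusted p = 0.00088) and Col6a6 at -1.34 (adjusted p = 0.0045). Control libraries are mostly B2 and BrapcKO libraries mostly B1, so without the code as a term the median of the 76 genes between groups was 0.17. The number of genes called by code varied with the library left out: it was 13 without control 08, 11 without control 09, 12 without control 22 and 7 without BrapcKO 21. The share of all genes called by code in those fits is not given here. Between groups, the share of all genes called also fell there, from 8.07% to 3.91%, 3.61%, 6.32% and 2.84% in the same order.

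**Figure D4:**
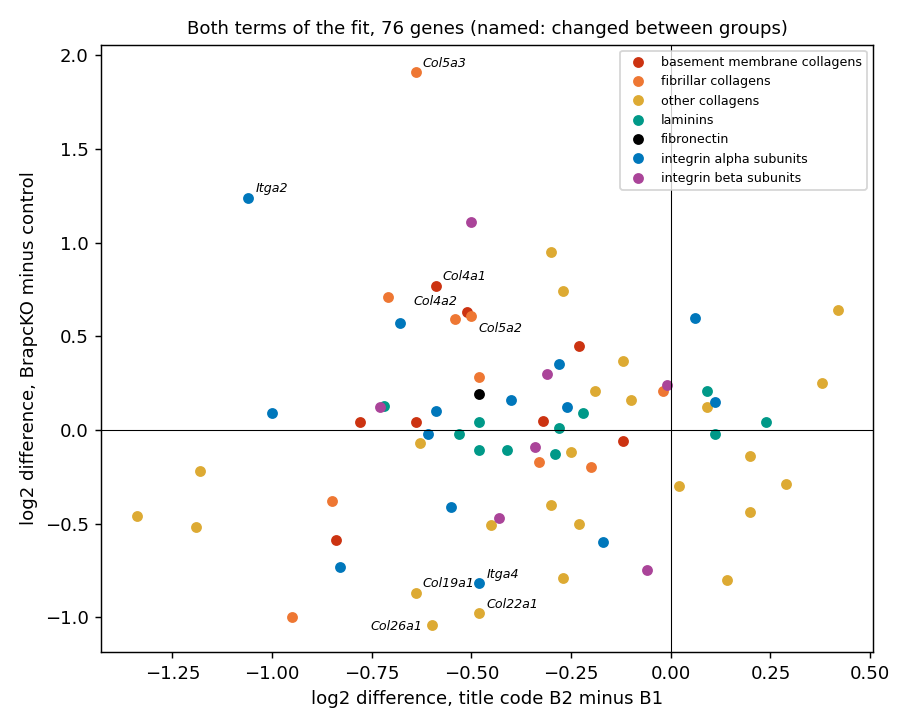
Log2 difference by title code (B2 minus B1, horizontal axis) against log2 difference by group (BrapcKO minus control, vertical axis) for the 76 genes in 1 fit, coloured by family. Most points lie left of 0 on the horizontal axis, with a median of -0.37, and are spread on both sides of 0 on the vertical axis, with a median of 0.04; the 9 named genes changed between groups.

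Split by genotype, with the code as a term, 7 of the 76 genes changed between flox/ko Cre+ (BrapcKO 04, 07 and 21) and flox/wt Cre- (control 08, 22 and 23), where 4.84% of all genes did. Col4a1, Col4a2 and Col5a3 were higher, at 0.81, 0.69 and 1.72 (adjusted p = 0.03, 0.012 and 0.046). Col19a1, Itga4, Col26a1 and Itgb4 were lower, at -0.93, -0.78, -1.01 and -0.98 (adjusted p = 0.0055, 0.032, 0.034 and 0.038). Between flox/flox Cre+ (BrapcKO 05 and 06) and flox/flox Cre- (control 09 and 24), 2 genes were higher and 0 lower, where 0.736% of all genes changed. These were Col27a1 at 1.25 (SE 0.20, adjusted p = 0.021) and Col16a1 at 1.23 (SE 0.22, adjusted p = 0.04), whose flox/ko differences were 0.39 and 0.49 (adjusted p = 0.21 and 0.17). Both genes were highest in BrapcKO 05 and 06, at 13.3 and 13.6 CPM for Col27a1 and at 26.8 and 37.3 CPM for Col16a1.

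A difference between the 2 genotype contrasts was called by edgeR for 0 of the 76 genes and 0% of all genes. At an unadjusted p under 0.05 the difference between contrasts was seen in 8 of the 76 and in 873 of all genes. Col27a1 had the smallest p of these (difference -0.86, SE 0.24, adjusted p = 0.65). The flox/flox values were 0.70 for Col4a1 and 0.58 for Col4a2, with differences between the contrasts of 0.11 in each (SE 0.27 and 0.18). The low Col4a3 was at 0.50 in flox/ko and -1.75 in flox/flox (difference 2.26, SE 0.96, adjusted p = 0.81). With genotype as the only term, 0 of the 76 genes passed in either contrast, and the share of all genes in that fit is not given here.

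The partners of these genes were read from lists of matrix and adhesion genes, in the edgeR fit in which 3.12% of all genes rose and 4.95% fell. Of 13 basement membrane partners, 2 rose and 11 did not pass. Sparc, a collagen-binding protein that acts in basement membrane assembly, was at 138, 113, 143, 115 and 135 CPM in control 08, 09, 22, 23 and 24 and at 243, 304, 193, 254 and 210 CPM in BrapcKO 04, 05, 06, 07 and 21. Every BrapcKO library was above every control, the difference was 0.88 (SE 0.13, adjusted p = 0.0022), and the call held when any library was left out. Smoc1, a relative of Sparc, was at 0.40 (adjusted p = 0.045), a call lost on leaving out any library but control 24, BrapcKO 05 or BrapcKO 06 (adjusted p = 0.073 to 0.3). The basement membrane linkers Nid1 and Hspg2 were at 0.41 and 0.15 (adjusted p = 0.11 and 0.7).

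Of 24 measured genes for collagen modification and crosslinking, 1 rose. This was Plod2, the lysyl hydroxylase of collagen ends, at 6.18 ± 1.32 CPM in controls and 9.77 ± 0.741 CPM in BrapcKO (0.65, SE 0.17, adjusted p = 0.033), whose call was lost on leaving out control 08, control 09, BrapcKO 04, BrapcKO 07 or BrapcKO 21 (adjusted p = 0.055 to 0.15). The collagen chaperone Serpinh1 was at 0.21 (adjusted p = 0.48). Of 26 other matrix ligands and glycoproteins, 0 rose and 4 fell: Ccn1 at -1.44, Npnt at -0.77, Mfge8 at -0.70 and Thbs2 at -0.55 (adjusted p = 0.022, 0.014, 0.032 and 0.041). Npnt is the nephronectin ligand of the Itga8 integrin, Mfge8 binds Itgav integrins on phagocytes, and Thbs2 is an astrocyte thrombospondin. All 4 calls were lost without control 08 or BrapcKO 21. Npnt, Mfge8 and Thbs2 also lost theirs without control 09, Mfge8 without BrapcKO 04 or 06, and Thbs2 without control 22, control 23, BrapcKO 05 or BrapcKO 07 (adjusted p up to 0.21 for Ccn1, 0.097 for Npnt, 0.21 for Mfge8 and 0.28 for Thbs2).

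Inside the cell, 1 of 28 integrin adaptor and adhesion genes changed, where 3.12% of all genes rose and 4.95% fell. Parva, the parvin that ties integrin-linked kinase to actin, fell from 64.2 ± 3.05 to 39.9 ± 6.27 CPM (log2 difference -0.73, SE 0.11, adjusted p = 0.0022), with every BrapcKO library below every control and the call held when any library was left out. The talin gene Tln1 was at 0.10 (adjusted p = 0.73). Of 5 measured non-integrin collagen receptors, Adgrg1, the receptor for type III collagen on neural precursors, rose by 0.41 (SE 0.10, adjusted p = 0.032), a call lost without control 09, 22 or 23 or any BrapcKO library other than 05 (adjusted p = 0.052 to 0.27).

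In bulk tissue, fewer cells of a type and less RNA per cell cannot be told apart, so marker sums of the cells that make these genes are given beside them. For the counts of markers, 3.12% of all genes rose and 4.95% fell in edgeR. DESeq2 called 11.8% and limma-voom 8.2% of all genes. Of 12 endothelial markers 0 changed in edgeR, DESeq2 or limma-voom (1 at an unadjusted p under 0.05), with a median of 0.04 and a sum of 144 to 288 CPM in controls and 204 to 365 CPM in BrapcKO. Of 10 pericyte markers 0 changed by the same tools (1 at an unadjusted p under 0.05; median 0.22, 199 to 322 against 252 to 375 CPM). In B2, 6 of the endothelial and 5 of the pericyte markers were lower than in B1. The sum of endothelial markers was lowest in control 24, which was also the library with the lowest Col4a1. Of 16 leptomeningeal fibroblast markers 4 fell and 0 rose (median -0.26, 312 to 364 against 269 to 326 CPM): Cemip and Slc13a4 were at -0.54 and -0.75 (adjusted p = 0.0068 and 0.018), with Ogn and Slc6a13 the others. On the groups alone 1 of the 16 fell, where 2.49% of all genes fell. The part of these cells in the collagen differences was not tested.

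Of 12 microglia markers, C1qa, C1qb and C1qc rose and 9 did not pass the edgeR test, in which 3.12% of all genes rose and 4.95% fell. The summed level of the 12 microglia markers, which was not tested, was 355 to 390 CPM in controls and 501 to 1370 CPM in BrapcKO. The highest sum, 1370 CPM, was in BrapcKO 05, the library in which Itgb2, Itgax and Itgb5 were also highest. Of 11 astrocyte markers, Vim and Gfap rose, by 1.81 and 2.05 (adjusted p = 0.0034 and 0.02). Of 9 neuron markers, Gad2 and Gad1 rose (1.23 and 0.57, adjusted p = 3e-04 and 0.0077) and Syt1 fell (-0.34, adjusted p = 0.0063). Median differences were 0.12 for 7 smooth muscle markers, 0.04 for 7 border macrophage markers, -0.17 for 7 oligodendrocyte markers and 0.12 for 5 oligodendrocyte precursor markers, and 1 of 10 blood leukocyte markers was in the table. Choroid plexus markers summed to 2390 CPM in control 24, to 54.2 to 519 CPM in the other controls and to 141 to 715 CPM in BrapcKO. Control 24 was also the highest library for Lamb1 (49 CPM), Col8a1 (19.3 CPM), Col8a2 (14.5 CPM) and Col9a3 (26.1 CPM). Without it, the group differences of these 4 genes were 0.10, -0.56, -0.23 and 0.50 (adjusted p = 0.64, 0.19, 0.7 and 0.2). The part of microglia and choroid plexus RNA in these levels was not tested.

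**Figure D5:**
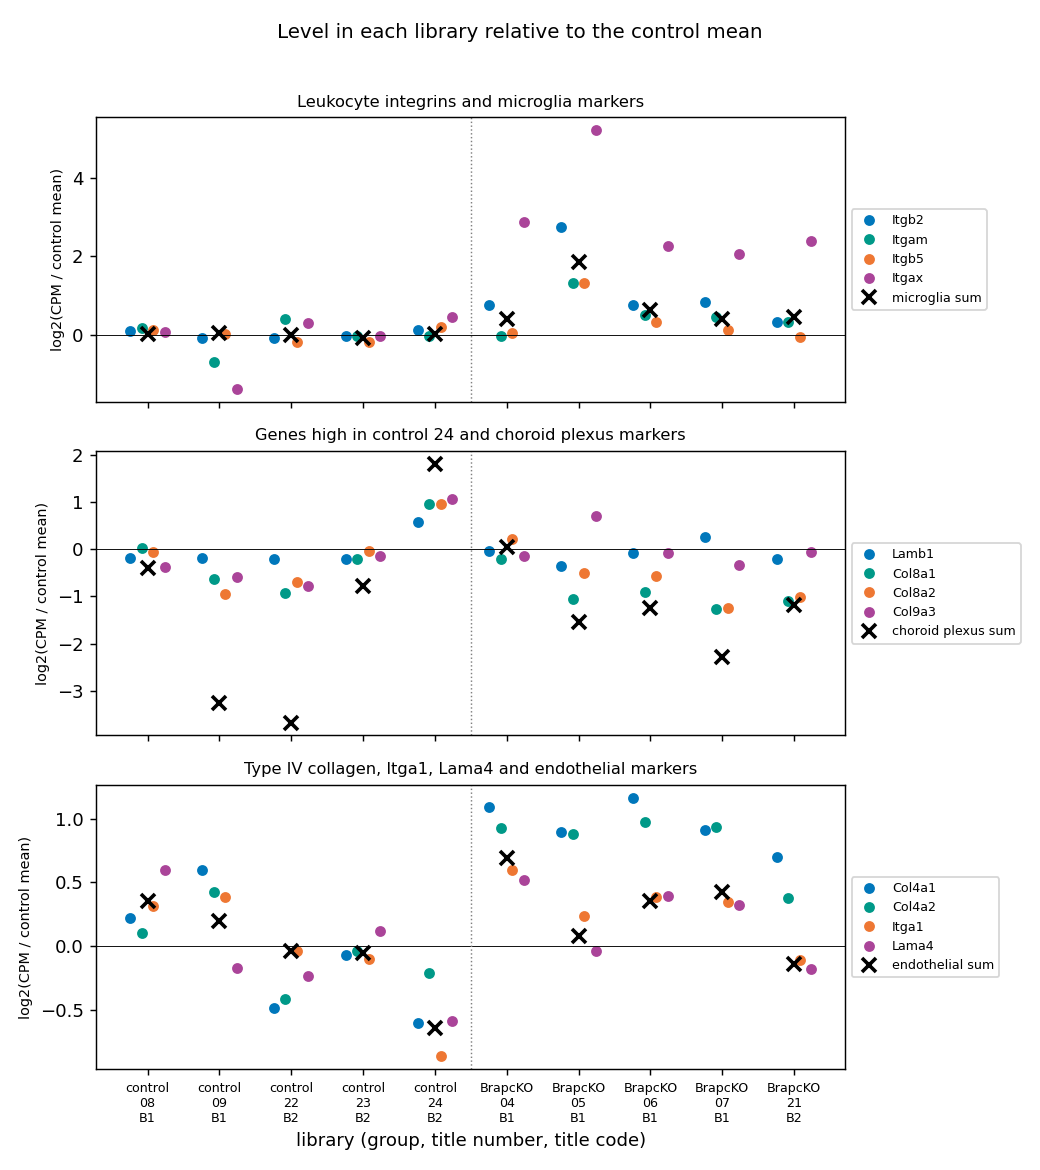
Level in each library as log2 of its CPM over the control mean, for leukocyte integrins with the summed microglia markers (top), for genes high in control 24 with the summed choroid plexus markers (middle), and for Col4a1, Col4a2, Itga1 and Lama4 with the summed endothelial markers (bottom); crosses are marker sums. BrapcKO 05 has the highest microglia sum, control 24 the highest choroid plexus sum, and Col4a1 and Col4a2 lie above the endothelial cross in each BrapcKO library.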

How the data were processed

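Per the labels' protocols, RNA of frozen cortex was extracted with Trizol, treated with DNase and depleted of ribosomal RNA. The submitters' processing notes list FastQC, Subread, featureCounts, DESeq2 and edgeR with mm10 and GRCm38; their versions, settings and strand use were not given in the sources used here. In the table the authors deposited are unnormalised read counts per gene, with libraries as columns. Of 14276 identifiers 14271 matched GENCODE M21 gene names, 13492 in the same version. Reads of overlapping, antisense or near-identical genes cannot be told apart.

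Groups were tested in edgeR 4.0.16 by quasi-likelihood (robust, TMM, title code and group as terms, R 4.3.3). The default low-count filter removed 0 genes, and all 76 genes passed. P-values were adjusted by Benjamini and Hochberg over all 14276 genes, with 0.05 as the threshold for a change. SE is the absolute log2 difference over the square root of F. CPM are TMM-scaled. Level per kb divides CPM by the union of exons. Genotype contrasts used 4 genotype groups plus the code. Replicates differed by more than counting noise (chi-square per degree of freedom 7.2 to 96.9).

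Alternatives were DESeq2 1.42.0, limma-voom (limma 3.58.1), other scalings, filters and terms, single codes or genotypes, and each library left out. The edgeR, limma-voom and DESeq2 fits were also run on simulated counts with planted group differences, and the outcome is not given here. Named genes were all changed members, the highest per kb and smallest p of each family, and up to 2 changed genes of each other list. Other genes were named after their values were seen. The members and lists were chosen with earlier results of these data known.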

Additional observations from a re-analysis of the deposited data

Results flagged for a closer look

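In each group of 5 libraries, a library was singled out when its gap to the nearest other library, on a log2 scale, was more than 0.71 of the group's range. Chance does this in about 1 in 20 groups, and 9 of the 152 groups of the 76 genes met it. BrapcKO 21, the sole BrapcKO library of title code B2, was low in 4 of them. It stood at 47.7 CPM for Col4a2 (67.9 to 72.2 CPM in the other BrapcKO libraries), 25.5 CPM for Lamb2 (42 to 49), 0.637 CPM for Col7a1 (1.35 to 1.52) and 0.177 CPM for Col17a1 (0.831 to 1.35). BrapcKO 05, the library with the highest microglia marker sum, was high in 3. It stood at 89.9 CPM for Itgb5 (34.2 to 44.6 CPM in the others), 26.3 CPM for Itgb2 (4.89 to 6.99) and 20.3 CPM for Col9a3 (9.97 to 12.1). Control 24, the library with the highest choroid plexus marker sum, stood at 49 CPM for Lamb1 (28.4 to 28.9 CPM in the other controls). BrapcKO 04 was at 0.415 CPM for Col13a1 (1.18 to 1.61 CPM in the others). Without BrapcKO 05 the difference of Itgb5 went from 0.30 to 0.06 and that of Itgb2 from 1.11 to 0.60. Without BrapcKO 21 Col4a2 was at 0.65, against 0.63 with it.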

How the results depend on the processing

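The 5 genes of the set that rose became 2 with a Y-linked score as a term (Col4a2 and Col5a3), 8 in DESeq2 and 2 in B1 alone. They became 3 between flox/ko and flox/wt and 2 between the flox/flox genotypes. The 4 that fell became 0 on the groups alone, 7 in DESeq2, 2 in B1 alone and 0 between the flox/flox genotypes. No count is given for B2 alone, because it has 1 BrapcKO library. The share of all genes called moved too, from 8.07% to 2.24% with the Y-linked score, 11.8% in DESeq2 and 2.91% in B1 alone. It was 4.32% on the groups alone, 4.84% between flox/ko and flox/wt and 0.736% between the flox/flox genotypes. With single libraries left out, 2 to 6 rose and 3 to 9 fell. In those fits 2.84% (without BrapcKO 21) to 10.2% (without control 24) of all genes changed. The lowest count of rises came without BrapcKO 21 and the highest count of falls without BrapcKO 05. Among the other matrix and adhesion genes, 1 to 8 rose and 1 to 6 fell (5 and 5 with all libraries), and 7 to 29 of the 76 genes were lower in B2. With genotype as the only term, 0 genes of the set passed in the flox/ko contrast and 0 in the flox/flox contrast. The share of all genes that passed in that fit is not given here. Among the 16 genes followed through every alternative, direction reversed in 4 cases, all in genes without a call: Col11a2 was -0.02 with the Y-linked score and -0.27 in B2 alone, Fn1 was -0.17 in B2 alone, and Lamc1 was -0.01 between the flox/flox genotypes. Over all 76 genes, 10 without a call in either fit changed direction on the groups alone. The cause of these shifts was not tested. Library totals in place of TMM moved the median of all genes to 0.036, and no change of scaling or filter altered these counts by more than 1.5 times. No paired analysis was possible because the groups share no replicate number. B2 has 1 BrapcKO library, flox/flox has 2 libraries a side, and Col5a3, Itga2 and Col22a1 rest on few reads, which limits precision there.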
